A study of Mus musculus with 31 samples.

Results

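The 44 mouse genes that encode collagen chains were followed in 2 subcutaneous tumor models after a single dose of radiation therapy (RT). A gene was a member when its symbol read Col, a number, the letter a and a second number, which gave 44 of the 46072 genes listed. The tumors were RM-9, a mouse prostate cancer line, and MC-38, a mouse colon cancer line, each injected under the skin of the right hind leg of male C57BL/6J mice bought at 6 to 7 weeks of age. Messenger RNA was sequenced when tumors had received 15 Gy and been left for 3, 12 or 24 h, or had received no radiation (control). There were 4 mice in every group except RM-9 RT 24 h, which had 3, so that 15 RM-9 and 16 MC-38 libraries, 1 a mouse, made up the 31. The controls carried the 3 h label, and the same 4 controls of a model served all 3 of its RT times. Each model was a single cell line in one strain of host, and the injected cells and the host's own stroma were sequenced together.

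Collagens are the triple-helical proteins of the extracellular matrix, each built from 3 chains that must be made by the same cell. Fibrillar collagens (types I, II, III, V and XI and relatives) form the rope-like fibers of connective tissue, type IV forms the sheet of the basement membrane under epithelium and around vessels, and type VI forms beaded microfibrils. The multiplexins, types XV and XVIII, sit in basement membranes, and the end of the type XVIII chain is released as endostatin. In tumors most fibrillar collagen is usually made by fibroblasts, while carcinoma cells and endothelium contribute basement membrane chains. In these bulk libraries, fewer cells of a type and less RNA per cell cannot be told apart.

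The sequences below lie just before the start sites of the members on which the results turn, taken from RefSeq windows on GRCm38.p6 (250 bases before to 50 after a start) and cut off before the start given in the deposited files. RefSeq windows were at hand for 35 of the 44 members. Col18a1 is shown because it had the largest fitted log2 difference between the controls of the models. Col4a5 and Col4a6 are shown because these neighbors point away from each other, with 1308 bases between their starts, and Col4a6 alone of the pair was nearly absent from RM-9 tumors. Col4a1 and Col4a2 also point away from each other, and their first exons overlap by 22 bases, so 30 bases around that overlap are shown. Capitals mark GGGCGG (the core of an Sp1 box) or CCAAT on either strand. TATAAA was also searched and is in none of the 4 stretches.
Col18a1, chr10:77166549-77166780, minus strand: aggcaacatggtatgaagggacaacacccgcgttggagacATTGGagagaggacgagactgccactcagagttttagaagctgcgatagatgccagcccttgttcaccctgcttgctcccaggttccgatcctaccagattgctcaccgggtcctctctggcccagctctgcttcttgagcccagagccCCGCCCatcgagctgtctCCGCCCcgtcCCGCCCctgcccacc
Col4a5, chrX:141475169-141475384, plus strand: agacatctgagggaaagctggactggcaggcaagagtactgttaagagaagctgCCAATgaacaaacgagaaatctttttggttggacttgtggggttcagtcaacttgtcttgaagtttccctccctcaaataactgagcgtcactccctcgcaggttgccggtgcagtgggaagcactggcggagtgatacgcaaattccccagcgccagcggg
Col4a6, chrX:141474077-141474326, minus strand: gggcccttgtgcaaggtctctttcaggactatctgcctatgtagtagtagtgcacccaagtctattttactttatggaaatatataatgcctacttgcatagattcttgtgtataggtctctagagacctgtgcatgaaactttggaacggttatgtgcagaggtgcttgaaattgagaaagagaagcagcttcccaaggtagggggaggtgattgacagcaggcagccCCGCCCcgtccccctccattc
Col4a1 and Col4a2, chr8:11312801-11312830, plus strand: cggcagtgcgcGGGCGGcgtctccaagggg
The Col18a1 stretch held 3 GGGCGG matches and 1 CCAAT match. Over the full 300-base windows, GGGCGG was in 35.7% of all 32851 promoters and CCAAT in 37.4%, against 60.5% and 34.2% of the 38 windows of the members. These 38 windows come from 35 members, and some of them overlap. Their median CpG count was 11.5, against 7 over all promoters, and its part in the GGGCGG share was not tested. The full Col4a5 window holds 1 GGGCGG match that lies outside the stretch shown. A match is a run of letters and says nothing of binding. A further RefSeq start of Col18a1 lies 52843 bases downstream, and the gene-level values do not separate transcripts from the 2 starts.

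Gene expression was read as TPM, a length-corrected measure that gives each library the same total. Depth, worked out from coverage, was 21400000 to 29500000 reads. The mitochondrial transcript mt-Nd4l took 35.6 to 43.5% of TPM in RM-9 and 12.9 to 29.6% in MC-38 libraries, and this compressed every other value, so counts of calls are also given after median-ratio scaling, in which the typical gene is set equal between libraries. The epithelial markers Epcam, Krt8, Krt18, Krt19 and Cdh1 together reached 669 to 1526 TPM in RM-9 but 0.553 to 1.56 TPM in MC-38 libraries, although MC-38 is labelled adenocarcinoma. Skeletal muscle transcripts, from 9 marker genes, ranged from 3.59 to 12214 TPM, with the highest value in MC-38 control mouse 1, which also had the highest mt-Nd4l share of its model. Whether the models were sequenced together is not given in the sources used here.

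To define the collagen repertoire, members were ranked by mean TPM over all libraries. Of the 44 members, 26 exceeded 0.5 mean TPM over the 31 libraries, 15 exceeded 10 TPM and 6 exceeded 100 TPM. Within RM-9, 23 exceeded 0.5 TPM, and within MC-38, 26 did. The limit was passed in both models by 21 members, in RM-9 alone by 2 (Col2a1 and Col28a1), in MC-38 alone by 5 (Col11a1, Col4a6, Col9a3, Col8a2 and Col13a1) and in neither by 16. No member was at 0 in every library, and 26 were above 0 in all of them. Nearest the limit were Col2a1, just inside at 0.527 TPM over all libraries, and Col13a1, just outside at 0.471 TPM over all libraries but inside at 0.595 TPM within MC-38. The 16 members under the limit in both models never exceeded 1.55 TPM in any library, and among them were the cartilage chains Col9a1, Col9a2, Col10a1 and Col11a2 and the kidney and lung basement membrane pair Col4a3 and Col4a4.

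The 6 members with the highest mean were the type III chain Col3a1 at 265 TPM, the type XVIII chain Col18a1 at 156 TPM, the type VI chain Col6a1 at 149 TPM, both type I chains Col1a1 at 145 TPM and Col1a2 at 139 TPM, and the type VI chain Col6a2 at 101 TPM. Col3a1 ranked first in the controls of both models. Col18a1 ranked second of 44 in RM-9 controls and 13th in MC-38 controls, the widest gap in rank among these 6. Fibrillar chains made up 55.0 ± 5.43% of the summed collagen TPM in RM-9 controls and 53.5 ± 9.35% in MC-38 controls (mean ± SD, n = 4 mice each, as for all values below unless stated). Multiplexins made up 18.9 ± 3.64% in RM-9 and 3.22 ± 0.434% in MC-38 controls, while microfibril chains made up 16.4 ± 0.917% and 26.2 ± 7.26%. The ranges of the multiplexin share did not overlap, at 13.5 to 21.2% against 2.79 to 3.67%, and the same was true of the microfibril share, at 15.5 to 17.6% against 20.1 to 35.9%.

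**Figure D1:**
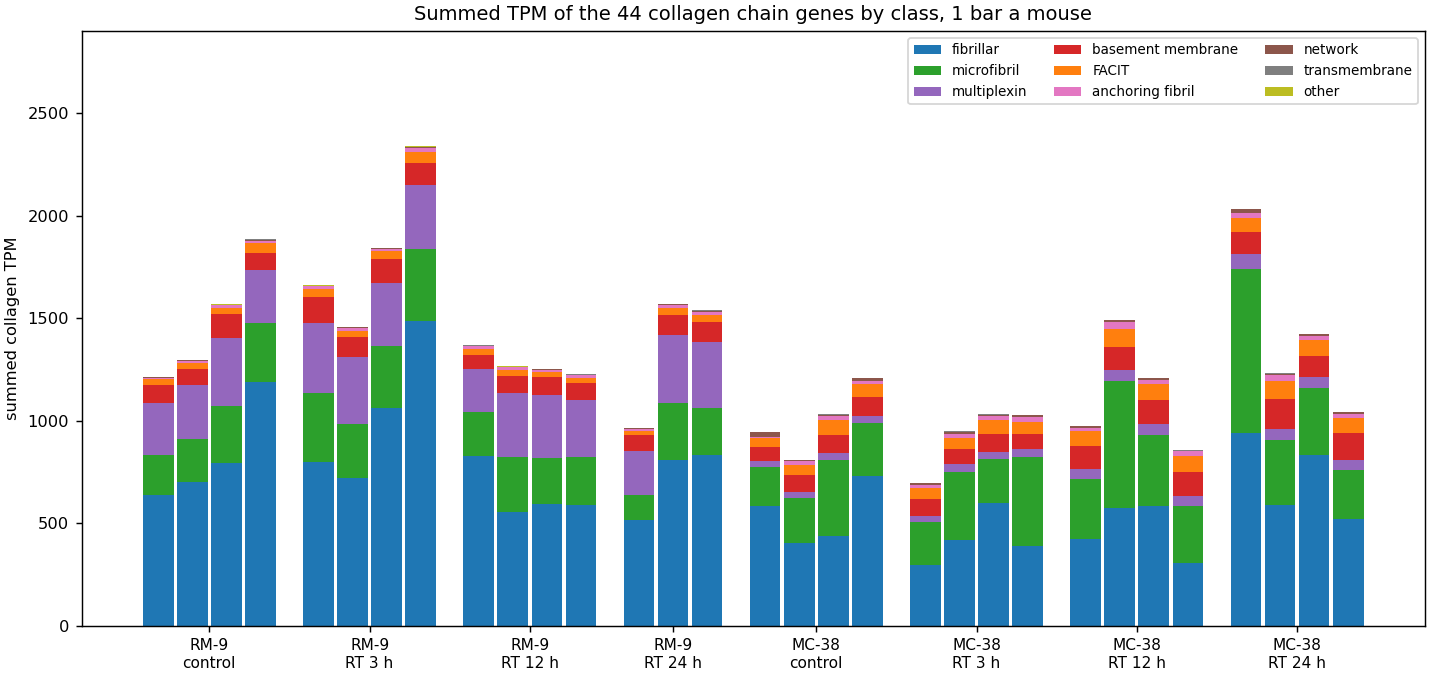
Summed TPM of the 44 collagen chain genes (vertical axis) in each of the 31 mice (1 bar a mouse, grouped along the horizontal axis), stacked by collagen class. The multiplexin layer, Col18a1 and Col15a1 together, is thick in RM-9 bars and thin in MC-38 bars, and mice of a group differ in height, from 1044 to 2032 TPM in MC-38 RT 24 h.

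Unirradiated tumors of the 2 models were compared first, to find which chains marked each tumor before RT. Of the 26 members tested, 7 were higher and 7 lower in MC-38 than in RM-9 controls (limma, adjusted p under 0.05). Among all 15358 genes tested, 64.7% were higher and 10.7% lower, 75.4% together. Among the members tested, 7 were higher and 5 lower in MC-38 with no overlap between the 4 mice of each model. The shares over all genes were 50.9% and 9.09%. The median log2 difference was 0.01 over the members and 0.63 over all genes on the TPM scale. After median-ratio scaling, which moved the median of all genes from 0.63 to 0.02, 5 members were higher and 14 lower, against 33.4% and 32.2% of genes, and the members' median was -0.61. Of the 14 members called on the TPM scale, 12 kept their direction and call after this scaling, all but Col5a3 and Col8a1, and 7 more were called lower with it (Col6a1, Col5a2, Col5a1, Col1a2, Col4a5, Col4a1 and Col23a1). Without mitochondrially encoded genes 8 of 29 members tested were higher and 11 lower, with a median of -0.36 over the members and 0.25 over all genes.

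**Figure D2:**
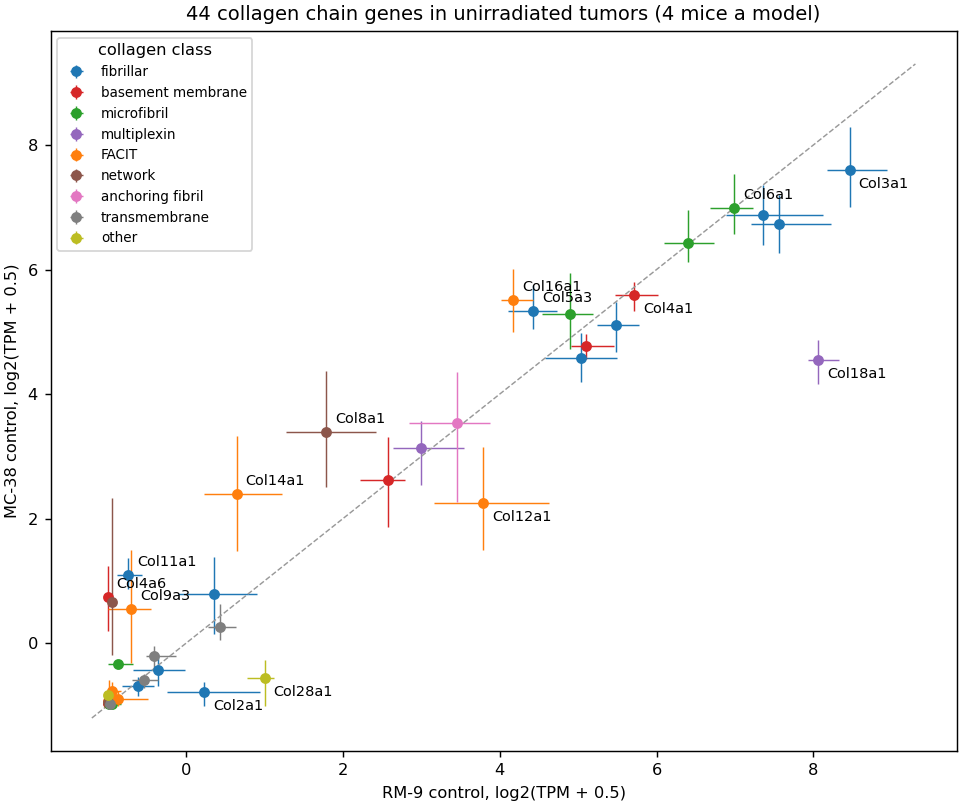
Mean log2(TPM + 0.5) of the 44 members in RM-9 controls (horizontal axis) and MC-38 controls (vertical axis), colored by class, with bars from the lowest to the highest of 4 mice and a dashed line of equality. Col18a1 lies far below the line, and Col11a1, Col4a6, Col14a1, Col8a1 and Col16a1 lie above it.

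The chain that differed most was Col18a1. It measured 244, 257, 321 and 248 TPM in the 4 RM-9 controls and 17.4, 24.4, 28.8 and 22.4 TPM in the 4 MC-38 controls. Every RM-9 mouse was thus far above every MC-38 mouse, and the fitted level was 11.4-fold higher in RM-9 (log2 difference -3.51 ± 0.15 SE, adjusted p = 1.79e-17). Col18a1 lies on chromosome 10, 77052178 to 77166548, minus strand, and its reads numbered an estimated 2345 to 52880 a library. The other multiplexin, Col15a1, did not pass the test, at 7.70 ± 2.41 TPM in RM-9 and 8.57 ± 2.72 TPM in MC-38 controls (adjusted p = 0.76).

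Of 9 fibrillar chains tested between controls, 3 were lower (Col1a1, Col3a1 and Col2a1) and 2 higher (Col11a1 and Col5a3) in MC-38. Col3a1 measured 287, 299, 363 and 491 TPM in RM-9 and 223, 127, 156 and 314 TPM in MC-38 controls, and Col1a1 averaged 196 ± 69.8 and 109 ± 33.5 TPM. For Col3a1, MC-38 mouse 4 lay above the 2 lowest RM-9 mice, while Col1a1 did not overlap, and both differences passed the test (Col3a1 log2 difference -0.87 ± 0.30, adjusted p = 0.012, and Col1a1 -0.83 ± 0.32, adjusted p = 0.021). Their partner Col1a2, at 173 ± 71.7 and 121 ± 38.5 TPM, did not on the TPM scale (log2 difference -0.49, adjusted p = 0.21) and did after median-ratio scaling (-1.16, adjusted p = 0.0083). The calls of Col3a1 and Col1a1 were lost without RM-9 control mouse 4, the mouse with the highest values of both, or without MC-38 control mouse 2, and that of Col1a1 also without MC-38 control mouse 3.

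Col12a1, a chain on the surface of type I fibrils, was lower in MC-38, at 14.4 ± 6.84 TPM in RM-9 and 4.71 ± 2.60 TPM in MC-38 controls (log2 difference -1.54 ± 0.45, adjusted p = 0.0036). Col28a1, a beaded-filament chain known from peripheral nerve, measured 1.54, 1.21, 1.63 and 1.67 TPM in RM-9 and 0.217, 0.219, 0 and 0.326 TPM in MC-38 controls (log2 difference -1.56 ± 0.20, adjusted p = 7.04e-08). The Schwann cell markers summed to 2.68 to 4.36 TPM in RM-9 and 1.60 to 5.37 TPM in MC-38 controls, and the 1 of 5 that could be tested was called lower in MC-38. Col2a1, the main chain of cartilage, was low throughout, at 0.743 ± 0.492 and 0.0839 ± 0.0657 TPM, and lower in MC-38 (log2 difference -1.02 ± 0.21, adjusted p = 8.10e-05). Of 6 cartilage and bone markers listed in the files, 5 were under 0.5 TPM in every RM-9 control and 5 in every MC-38 control, counted separately. The 1 tested was called lower in MC-38, and the 6 summed to 7.27 to 34.6 TPM in RM-9 and 0.0347 to 1.38 TPM in MC-38 controls. The part of these cells in the 2 differences was not tested. Col4a2 was the only basement membrane chain called lower, by a small margin (34.2 ± 6.41 against 27.0 ± 3.08 TPM, log2 difference -0.33 ± 0.13, adjusted p = 0.029), a call lost without RM-9 control mouse 1 or 3 or MC-38 control mouse 1 or 2.

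In the other direction, Col11a1, a minor chain that nucleates cartilage-type fibrils, measured 0.0718, 0.121, 0.0457 and 0.175 TPM in RM-9 and 1.38, 1.33, 1.85 and 2.09 TPM in MC-38 controls. No mouse of one model came near the other (log2 difference 1.83 ± 0.19, adjusted p = 3.26e-09). Over all RT groups Col11a1 stayed at or below 0.399 TPM in the 15 RM-9 libraries and at or above 1.27 TPM in the 16 MC-38 libraries. Col4a6 was listed at 0 in the 4 RM-9 controls and at 0.643, 0.897, 1.58 and 1.86 TPM in the MC-38 controls. It was listed at 0 in 12 of 15 RM-9 libraries, with a highest value of 0.0313 TPM, and was above 0 in all 16 MC-38 libraries. Its fitted log2 difference of 1.74 ± 0.25 (adjusted p = 7.36e-07) depends on the pseudocount and is not a fold. The gene on the other side of their shared upstream region, Col4a5, was at 5.53 ± 1.05 TPM in RM-9 and 6.07 ± 2.59 TPM in MC-38 controls and was not called.

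Col16a1, a chain associated with fibrils and dermal basement membrane, measured 17.4, 16.4, 15.7 and 21 TPM in RM-9 and 31.5, 38.8, 64.1 and 52.5 TPM in MC-38 controls (log2 difference 1.34 ± 0.16, adjusted p = 2.32e-08). Col5a3, the third type V chain, was also higher, at 21.3 ± 3.88 TPM in RM-9 and 40.6 ± 9.24 TPM in MC-38 (0.90 ± 0.16, adjusted p = 1.31e-05), but its difference shrank to 0.24 after median-ratio scaling (adjusted p = 0.17). Col14a1, a fibril-associated chain of dermis and tendon, was higher in MC-38 controls (5.61 ± 3.65 against 1.12 ± 0.519 TPM, log2 difference 1.74 ± 0.43, adjusted p = 0.00068). The low chain Col9a3, of type IX like Col9a1 and Col9a2, was also called higher in MC-38 controls on both scales. It averaged 1.22 ± 1.06 TPM in MC-38 and 0.122 ± 0.0952 TPM in RM-9 controls, with no overlap (0.301 to 2.31 against 0 to 0.231 TPM). Col8a1, a network chain made by vessel wall and corneal cells, measured 20.3, 5.17, 6.80 and 13.9 TPM in MC-38 and 2.50, 3.13, 1.92 and 4.87 TPM in RM-9 controls (log2 difference 1.61 ± 0.45, adjusted p = 0.0022), and lost its call after median-ratio scaling (1.02, adjusted p = 0.069). Endothelial markers summed to 41.3 to 54.6 TPM in RM-9 and 88.9 to 109 TPM in MC-38 controls, and 7 of 8 were called higher in MC-38, 2 of 8 after median-ratio scaling. Fibroblast markers summed to 182 to 325 and 316 to 459 TPM, with 4 of 10 called higher and 2 lower, and 2 higher and 3 lower after median-ratio scaling. Among all genes 64.7% were higher and 10.7% lower, and 33.4% and 32.2% after that scaling. The part of these cells in the collagen differences was not tested.

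The ratio of one chain to its partner within a library does not depend on how libraries are scaled. Col1a2 stood at 0.799 to 0.964 of Col1a1 over the 15 RM-9 libraries and at 0.953 to 1.15 over the 16 MC-38 libraries, which is narrow although Col1a1 itself ran from 49.6 to 368 TPM. Col4a2 stood at 0.605 to 0.741 of Col4a1 in RM-9 and 0.512 to 0.628 in MC-38, the pair with the overlapping first exons. The ratios of Col6a2 to Col6a1 covered 0.548 to 0.750 and 0.559 to 0.891. Partners in type V were looser, with Col5a2 at 0.548 to 1.04 of Col5a1 in RM-9 and 0.216 to 1.24 in MC-38. Col5a3 stood at 0.308 to 0.907 of Col5a1 in RM-9 and 0.927 to 1.41 in MC-38, and these ranges did not overlap. The ratio of Col18a1 to Col4a1 was 4.13 to 6.54 in RM-9 and 0.405 to 1.03 in MC-38. Mice of a model share treatment groups, and these ranges are given with no test.

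**Figure D3:**
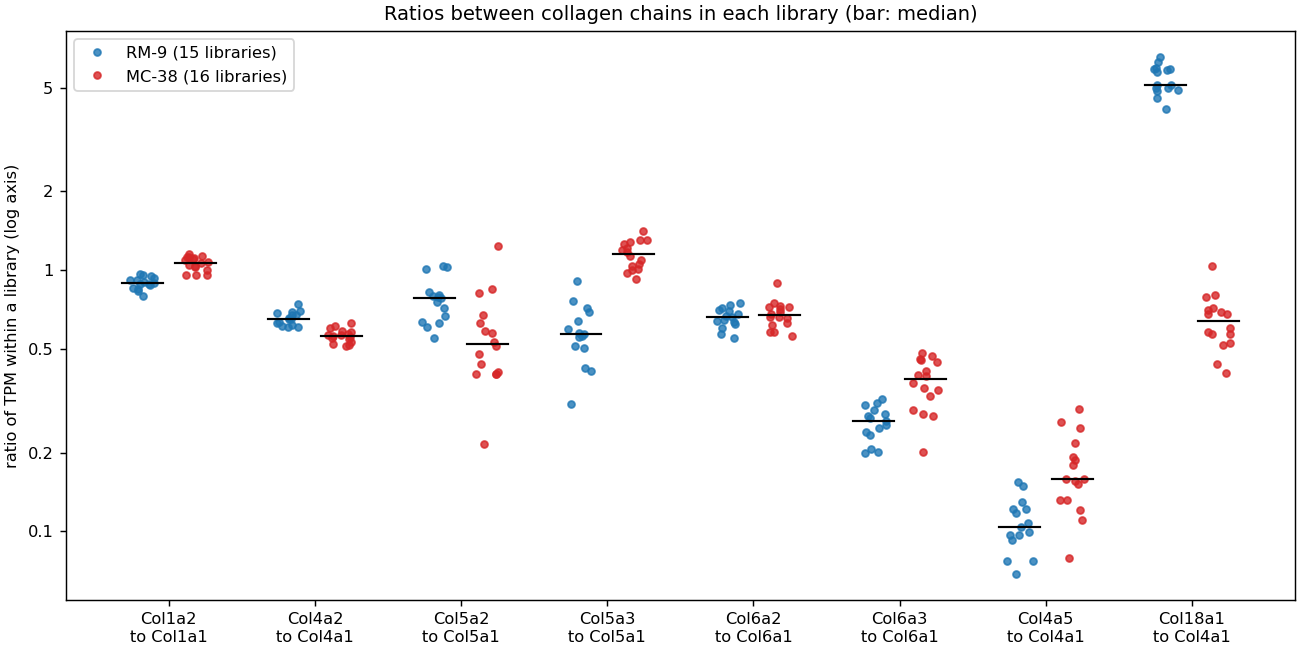
Ratio of TPM between the named chains within a library (vertical log axis) for 15 RM-9 (blue) and 16 MC-38 (red) libraries, with a bar at the median of each model. Col1a2 to Col1a1 and Col4a2 to Col4a1 hold a narrow ratio, and Col4a5 to Col4a1 a wider one. Col5a3 to Col5a1 and Col18a1 to Col4a1 separate the models.

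The next question was whether RT changed collagen transcripts within each model. In RM-9 tumors, no member of 23 tested passed the test at 3, 12 or 24 h (limma, adjusted p under 0.05). Among all 14013 genes, 0.228% were called at 3 h, 8.37% at 12 h (0.0714% higher and 8.3% lower) and 0% at 24 h, all on the TPM scale. After median-ratio scaling 1.69% of genes rose and 1.21% fell at 3 h, while 0.0714% rose and 0.0428% fell at 12 h, none was called at 24 h, and no member passed at any time. By limma, before adjustment over all genes, 5 members at 3 h, 1 at 12 h and 1 at 24 h had a p under 0.05. Dunnett's comparisons on TPM, run gene by gene, passed Col5a3 at 3 h and at 24 h and no member at 12 h. The members' median log2 difference was 0.30 at 3 h, -0.19 at 12 h and -0.06 at 24 h, beside 0.06, -0.19 and -0.04 over all genes.

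At 3 h the RM-9 members with the smallest p were Col5a3 and Col6a3, the large type VI chain. Col5a3 measured 22.2, 20.5, 26.0 and 16.7 TPM in controls and 26.9, 27.5, 34.7 and 30.1 TPM at 3 h, and Col6a3 measured 25.5, 22.7, 34.6 and 36.1 TPM and then 57.6, 38.1, 39.0 and 54.8 TPM. Neither pair of groups overlapped, in a comparison where 9.88% of all genes were higher and 2.87% lower without overlap, and the differences did not pass the test (log2 0.48 ± 0.14, adjusted p = 0.12, and 0.66 ± 0.26, adjusted p = 0.17). Of the 23 members, 19 had a difference above 0 at 3 h. At 12 h the smallest p belonged to Col14a1, at 1.12 ± 0.519 TPM in controls and 0.464 ± 0.419 TPM after RT (log2 difference -0.79 ± 0.31, adjusted p = 0.10), and to Col16a1, at 17.6 ± 2.33 and 14.7 ± 1.33 TPM (-0.25 ± 0.14, adjusted p = 0.23). At 24 h Col5a3 was at 26.1, 27.6 and 35.2 TPM in the 3 mice (log2 difference 0.47 ± 0.15, adjusted p = 0.94) and Col6a1 at 59.9, 141 and 117 TPM (-0.35 ± 0.23, adjusted p = 0.999). Col5a3 was the 1 member above all controls without overlap at 24 h, beside 2.01% of genes higher and 2.24% lower. Without RM-9 RT 24 h mouse 1 the difference of Col6a1 was 0.018.

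None of the type I, III and XVIII chains of RM-9 tumors passed the test. Col18a1 stood at 311 ± 22.7 TPM at 3 h, 271 ± 49.0 TPM at 12 h and 286 ± 64.4 TPM at 24 h (n = 3), against 268 ± 36.2 TPM in controls. The 95% interval of its log2 difference was -0.11 to 0.55 at 3 h, -0.32 to 0.33 at 12 h and -0.28 to 0.43 at 24 h. Col3a1 averaged 428 ± 113, 290 ± 47.3 and 311 ± 57.4 TPM at the 3 times, against 360 ± 93.4 TPM. The macrophage markers of RM-9 tumors summed to 300 to 468 TPM in controls and 152 to 289 TPM at 12 h, and 4 of 6 were called lower at 12 h on the TPM scale and none after median-ratio scaling. Skeletal muscle markers summed to 254 to 2443 TPM in controls, 4.16 to 960 TPM at 3 h and 3.59 to 1001 TPM at 12 h. Their median log2 difference was -4.41 and then -3.89. None of the 9 was called, and 8 had an unadjusted limma p under 0.05 at both times. At 3 h 1 of 7 pericyte and smooth muscle genes was called higher, on both scales. At 12 h 1 of 5 epithelial genes and the 1 Schwann cell gene tested were lower on the TPM scale only. The part of these cells was not tested.

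MC-38 tumors gave no collagen call at 3 h either. None of 26 members passed the test (limma, with 3 at an unadjusted p under 0.05 and none by Dunnett's comparisons). Of all 15698 genes 0.0637% passed, with 0.051% of all genes higher and 0.0127% lower. None of these 26 was outside the control range in all 4 mice, beside 7.2% of genes that were higher without overlap. Col17a1, under the limit and not tested, was at 0.314 to 0.337 TPM at 3 h against 0.109 to 0.211 TPM in controls. The smallest p belonged to Col27a1, a fibrillar chain of cartilage and developing tissue, at 1.32 ± 0.662 TPM in controls and 2.44 ± 0.83 TPM at 3 h (log2 difference 0.73 ± 0.30, adjusted p = 0.22). Next to it came Col8a2, the partner of Col8a1, which measured 4.52, 0.373, 0.388 and 1.12 TPM in controls and 0.522, 0.305, 0.290 and 0.185 TPM at 3 h (-0.95 ± 0.42, adjusted p = 0.23). The high control value came from mouse 1, the one with 12214 TPM of muscle transcripts.

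At 12 h post-RT, 11 of 26 members rose in MC-38 tumors and none fell. Among all genes, 28.5% rose and 2.59% fell at the same threshold, so the members' 42.3% stands beside a broad upward shift of the table. The median log2 difference was 0.46 over the members and 0.33 over all genes. After median-ratio scaling, which brought the median of all genes to 0.003, 2 members rose, Col18a1 and Col11a1, or 7.69%, and none fell, beside 6.27% of all genes that rose and 9.99% that fell. Without mitochondrially encoded genes, 9 members rose. All 4 mice lay above all controls for 9 of the 26 members tested at 12 h, beside 34.5% of genes. At 24 h they did so for 6 of those tested, beside 14.8%. By class, 3 of 4 basement membrane chains, 4 of 8 fibrillar chains, 1 of 2 multiplexins, 1 of 2 transmembrane chains, 1 of 4 fibril-associated chains with interrupted helices and the anchoring fibril chain rose, and 0 of 3 microfibril and 0 of 2 network chains did.

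At 24 h post-RT, 7 of 26 members rose and none fell, or 26.9% beside 13.2% of all genes that rose and 0.548% that fell. The median was 0.52 over the members and 0.22 over all genes. After median-ratio scaling 4 members rose, Col18a1, Col5a3, Col11a1 and Col4a5, or 15.4%, and none fell, beside 7.75% of genes that rose and 8.2% that fell, and the medians were 0.28 and -0.02. Of the 26 members, 25 had a difference above 0. Dunnett's comparisons on TPM passed the same 11 members at 12 h and the same 7 at 24 h.

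**Figure D4:**
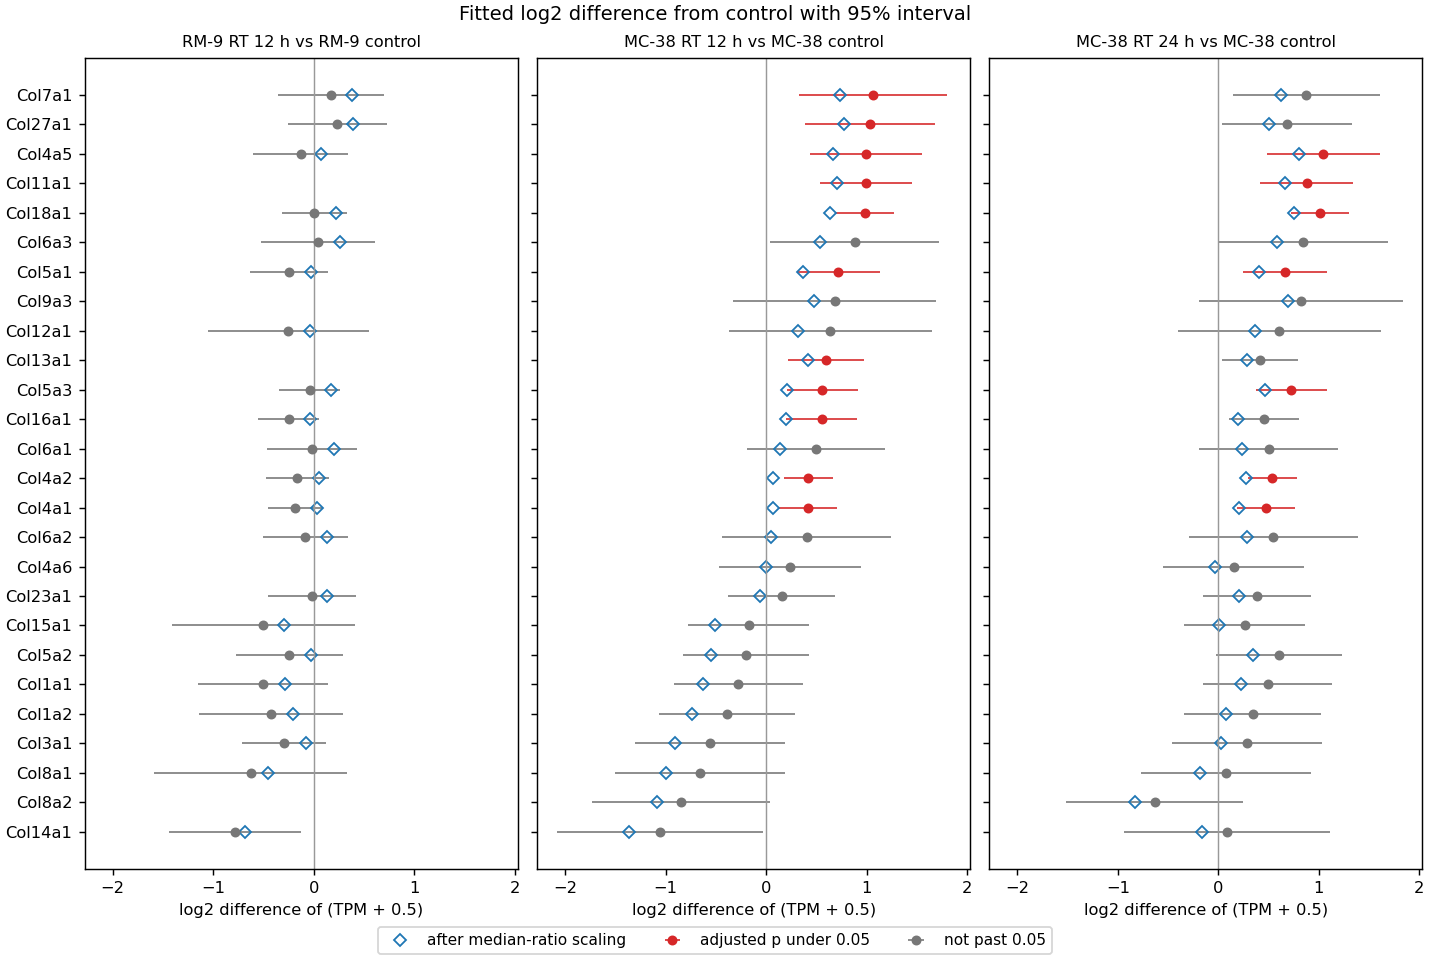
Fitted log2 difference from control of TPM + 0.5 (horizontal axis) for the 26 members tested in MC-38 (rows, ordered by the MC-38 12 h value), in RM-9 at 12 h and MC-38 at 12 and 24 h, with 95% intervals; red points passed the test, and blue diamonds are the values after median-ratio scaling. Diamonds lie to the left of the MC-38 points and to the right of the RM-9 points, and 5 rows are empty in RM-9, where those members were under 0.5 TPM.

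Col18a1 was the member with the smallest adjusted p at both times. It measured 17.4, 24.4, 28.8 and 22.4 TPM in MC-38 controls, 24.6, 29.0, 30.4 and 30.7 TPM at 3 h, 43.7, 47.4, 44.8 and 46.3 TPM at 12 h, and 56.4, 45.7, 41.7 and 43.7 TPM at 24 h. Every mouse at 12 and 24 h was above every control, while 3 h overlapped with controls. The fitted rise was 1.97-fold at 12 h (log2 difference 0.98 ± 0.14, adjusted p = 0.0038) and 2.02-fold at 24 h (1.01 ± 0.14, adjusted p = 0.000496). Both calls held after median-ratio scaling (0.63, adjusted p = 0.0043, and 0.75, adjusted p = 0.000796) and in all 8 fits that left out 1 mouse of the groups compared. Even so, the highest MC-38 value, 56.4 TPM, was below the lowest RM-9 value, 201 TPM.

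Of the basement membrane chains, Col4a1, Col4a2 and Col4a5 rose at both times. Col4a1 measured 39.8, 46.4, 50.6 and 55.2 TPM in MC-38 controls, 62.3, 59.4, 66.3 and 67.2 TPM at 12 h and 54.6, 80.5, 58.4 and 75.5 TPM at 24 h. Its partner Col4a2 measured 23.2, 26.3, 27.7 and 30.7 TPM, then 34.7, 35.5, 38.5 and 35.8 TPM, and then 34.3, 45.5, 35.5 and 42.5 TPM. No 12 h mouse overlapped with controls for either chain. The log2 differences at 12 h were nearly equal, 0.41 ± 0.14 for Col4a1 (adjusted p = 0.034) and 0.42 ± 0.12 for Col4a2 (adjusted p = 0.020), and at 24 h they were 0.47 ± 0.14 (adjusted p = 0.030) and 0.54 ± 0.12 (adjusted p = 0.0082). After median-ratio scaling they fell to 0.07 and 0.07 at 12 h and to 0.21 and 0.28 at 24 h, and none of the 4 passed the test (adjusted p = 0.74, 0.67, 0.29 and 0.11). These 2 genes occupy chromosome 8, 11198423 to 11312826 on the minus strand and 11312805 to 11449287 on the plus strand.

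Col4a5, the chain of the Alport syndrome network on chromosome X, had larger fitted differences. It measured 3.15, 5.6, 9.44 and 6.08 TPM in controls, 9.84, 15.6, 10.5 and 12.1 TPM at 12 h and 16, 15.5, 9.04 and 9.96 TPM at 24 h. One 24 h mouse lay below the highest control. The rise was 1.99-fold at 12 h (log2 difference 0.99 ± 0.26, adjusted p = 0.019) and 2.06-fold at 24 h (1.04 ± 0.26, adjusted p = 0.018), and after median-ratio scaling 0.67 (adjusted p = 0.058) and 0.80 (adjusted p = 0.027). The neighboring Col4a6 did not pass the test at either time, with 0.381 to 2.64 TPM over all MC-38 libraries.

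Of the 8 fibrillar chains, Col11a1, Col5a1, Col5a3 and Col27a1 rose at 12 h, and Col1a1, Col1a2 and Col3a1 did not pass the test. Col11a1 measured 1.38, 1.33, 1.85 and 2.09 TPM in controls, 3.16, 3.09, 3.96 and 5.10 TPM at 12 h and 3.18, 5.14, 2.48 and 3.36 TPM at 24 h, with no overlap with controls at either time. Its log2 difference was 0.99 ± 0.22 at 12 h (adjusted p = 0.011) and 0.88 ± 0.22 at 24 h (adjusted p = 0.016), and both calls held after median-ratio scaling (0.70, adjusted p = 0.033, and 0.67, adjusted p = 0.041). Col5a1 measured 25.1, 36.2, 43.9 and 34.2 TPM in controls, 50.2, 68.6, 57.2 and 52.0 TPM at 12 h and 78.4, 51.4, 47.9 and 45.5 TPM at 24 h. Its rise was 1.64-fold and 1.58-fold (adjusted p = 0.020 and 0.034) and was not called after median-ratio scaling (adjusted p = 0.17 and 0.15). Col5a3 rose from 40.6 ± 9.24 to 59.3 ± 6.26 TPM at 12 h (log2 difference 0.56 ± 0.17, adjusted p = 0.025) and 66.4 ± 7.22 TPM at 24 h (0.72 ± 0.17, adjusted p = 0.012). Col27a1 rose from 1.32 ± 0.662 to 3.11 ± 0.971 TPM at 12 h (1.03 ± 0.30, adjusted p = 0.025). After median-ratio scaling the 12 h values of Col5a3 and Col27a1 were 0.21 (adjusted p = 0.31) and 0.78 (adjusted p = 0.078).

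Type I and III chains form the bulk of connective tissue fibers. Col3a1 measured 223, 127, 156 and 314 TPM in MC-38 controls, 113, 181, 193 and 74.7 TPM at 12 h and 347, 168, 327 and 162 TPM at 24 h, with overlap at both times. The log2 differences at 12 h were -0.55 ± 0.35 for Col3a1, -0.28 ± 0.30 for Col1a1 and -0.39 ± 0.32 for Col1a2 (adjusted p = 0.21, 0.46 and 0.33). At 24 h they were 0.29 ± 0.35, 0.49 ± 0.30 and 0.34 ± 0.32 (adjusted p = 0.60, 0.29 and 0.49). The partner chain Col5a2 was likewise at -0.20 ± 0.29 and 0.60 ± 0.29 (adjusted p = 0.59 and 0.18). Fibroblast markers in MC-38 summed to 316 to 459 TPM in controls, 220 to 502 TPM at 12 h and 366 to 660 TPM at 24 h. Of the 10, 1 was called higher at 12 h and none at 24 h, beside 28.5% and 13.2% of all genes that rose. Their median log2 difference was -0.38 at 12 h and 0.15 at 24 h, beside 0.33 and 0.22 over all genes. After median-ratio scaling 1 was higher and 1 lower at 12 h, and none was called at 24 h.

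**Figure D5:**
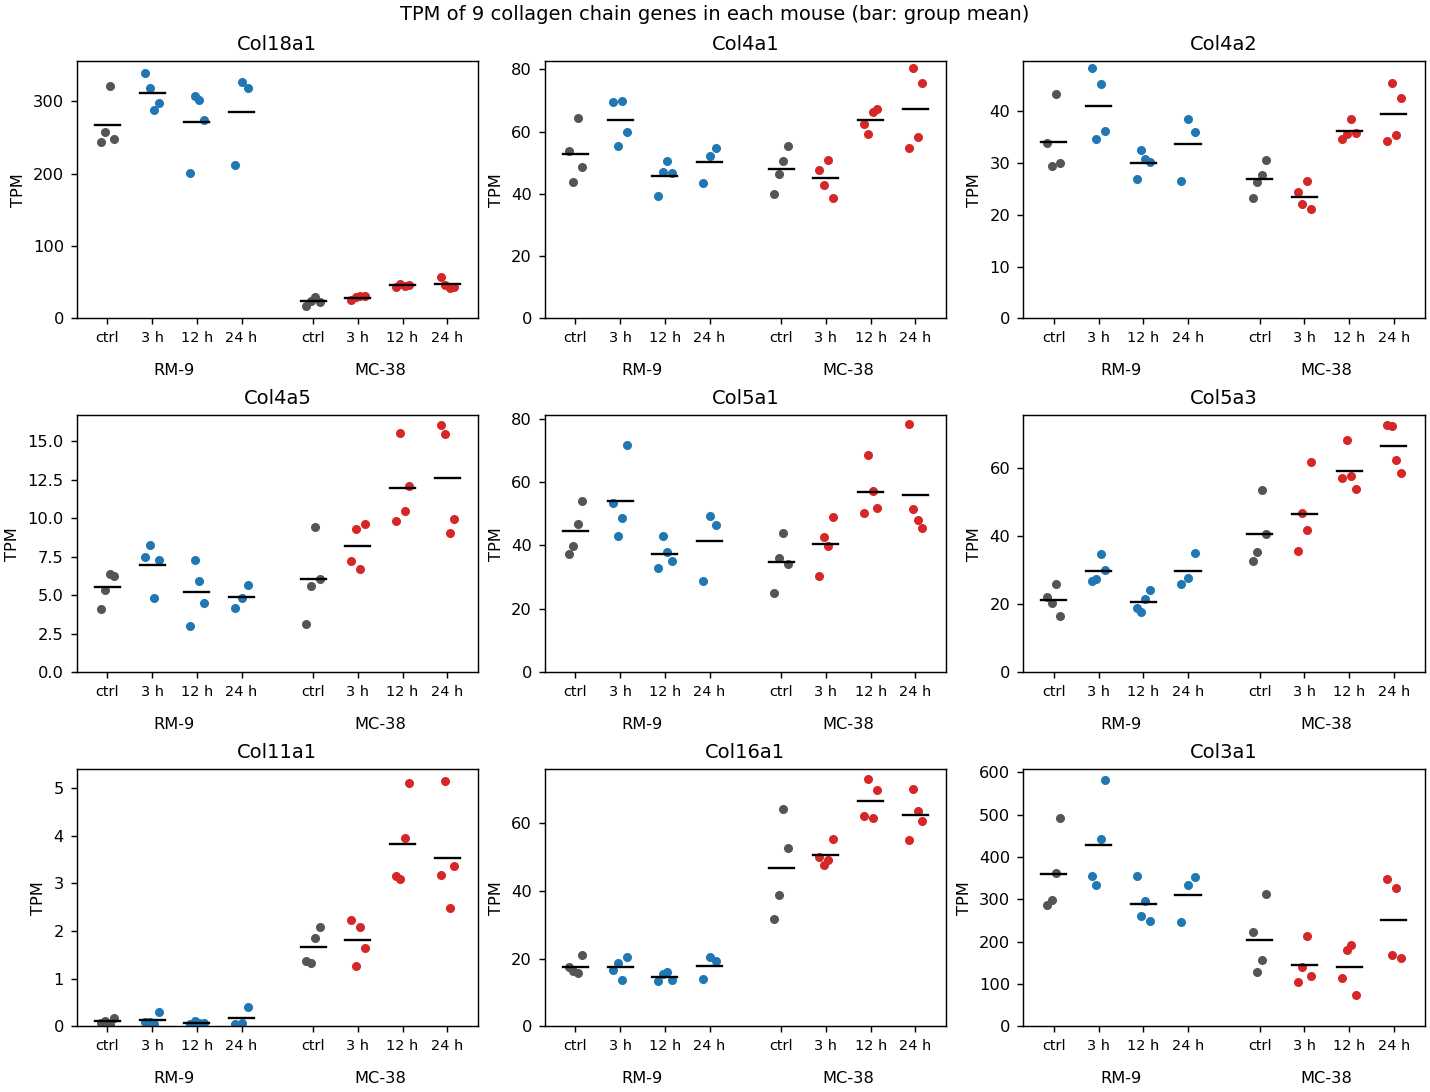
TPM (vertical axes, from 0) of 9 members in each mouse (points) by group (horizontal axis: control, 3, 12 and 24 h, RM-9 on the left and MC-38 on the right), with a bar at the group mean. The first 8 panels show members called in MC-38 at 12 h, whose 12 h points lie above or at the top of the controls, and the Col3a1 panel shows overlapping groups.

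The remaining calls at 12 h belonged to other classes. Col7a1, the anchoring fibril chain that fastens epidermis to dermis, measured 4.32, 16.5, 20.01 and 10.4 TPM in controls and 18.8, 35.6, 22.1 and 21.9 TPM at 12 h (log2 difference 1.07 ± 0.35, adjusted p = 0.033), with overlap of 1 mouse. Its value after median-ratio scaling was 0.73 (adjusted p = 0.085). The keratinocyte markers summed to 0.424 to 0.949 TPM in controls and 0.576 to 66.8 TPM at 12 h, where mouse 4 gave the highest value and the other 3 lay between 0.576 and 0.919 TPM. Col7a1 in mouse 4 was 21.9 TPM, and the highest Col7a1, 35.6 TPM, was in mouse 2. The transmembrane chain Col17a1, under the limit and not tested, was at 1.55 TPM in mouse 4 and 0.214 to 0.340 TPM in the other 3. The part of keratinocytes in these values was not tested. Col16a1 went from 46.7 ± 14.5 to 66.5 ± 5.66 TPM (0.55 ± 0.17, adjusted p = 0.026) and the low transmembrane chain Col13a1 from 0.375 ± 0.0951 to 0.830 ± 0.211 TPM (0.60 ± 0.18, adjusted p = 0.027). After median-ratio scaling these were 0.20 (adjusted p = 0.19) and 0.41 (adjusted p = 0.11). The type VI chains had higher means with wide spread, as for Col6a1 at 94.6, 101, 186 and 141 TPM in controls and 149, 285, 161 and 146 TPM at 12 h (0.49 ± 0.32, adjusted p = 0.23), Col6a2 (0.40 ± 0.40, adjusted p = 0.41) and Col6a3 (0.88 ± 0.40, adjusted p = 0.090).

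MC-38 control mouse 1 bore on the 12 h count. Without it, 2 of the 11 calls remained, Col18a1 and Col11a1. Without MC-38 control mouse 2, 10 members rose at 12 h and 1 fell, Col8a2, and without MC-38 control mouse 3, 12 rose and 2 fell, Col8a2 and Col14a1. Without MC-38 RT 12 h mouse 2, 3 and 4 in turn the count was 3, 7 and 4, and without MC-38 RT 24 h mouse 2 the 24 h count was 3. A fit on the 2 groups alone, with 8 libraries in place of 16, called 3 members at 12 h and 1 at 24 h. Of the other marker lists in MC-38 at 12 h, 4 of 6 macrophage genes were called lower, 5 after median-ratio scaling, and so was the 1 Schwann cell gene tested, on both scales. Of 7 pericyte and smooth muscle genes, 1 was called higher and 1 lower. None of 8 endothelial, 9 skeletal muscle, 5 neutrophil, 3 keratinocyte and 1 adipocyte genes tested was called on the TPM scale, and 1 endothelial gene was lower after median-ratio scaling. The median log2 difference over the 9 skeletal muscle genes was -3.60. At 24 h, 2 of 8 endothelial genes were called higher on the TPM scale and none after median-ratio scaling, 1 of 7 pericyte and smooth muscle genes was higher on both scales, and 1 of 6 macrophage genes was lower, 3 after scaling. The part of these cells in the collagen changes was not tested.

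Whether the models differed in their change was tested in a fit of all 31 libraries. No member of 26 differed at 3 h (limma, with 1 at an unadjusted p under 0.05, and 0% of 15358 genes called). At 12 h, 8 members changed more in MC-38 than in RM-9, or 30.8% of those tested beside 44.9% of all genes higher and 45.4% called in either direction. Led by p, they were Col18a1 (log2 difference of changes 0.97 ± 0.21, adjusted p = 0.0025), Col11a1 (1.07 ± 0.27, adjusted p = 0.0055) and Col16a1 (0.80 ± 0.22, adjusted p = 0.0081). After median-ratio scaling, which moved the median of all genes from 0.50 to 0.02, none passed (adjusted p = 0.14, 0.12 and 0.31), and without mitochondrially encoded genes 3 of 29 did. At 24 h only Col18a1 differed (0.94 ± 0.22, adjusted p = 0.027, beside 1.81% of genes), and it did so after median-ratio scaling as well (0.67, adjusted p = 0.043). Its call at 24 h was lost without MC-38 control mouse 1, RM-9 control mouse 3 or RM-9 RT 24 h mouse 1.

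Collagen chains are hydroxylated, glycosylated and folded in the endoplasmic reticulum by dedicated enzymes and chaperones, trimmed outside the cell and cross-linked. Of 31 such genes, 28 were tested. In RM-9 tumors none was called at any time by limma, with 3, 5 and 0 at an unadjusted p under 0.05 at 3, 12 and 24 h. In MC-38 tumors none was called at 3 h, 13 rose and none fell at 12 h, and 11 rose and none fell at 24 h, beside 28.5% of all genes that rose at 12 h and 13.2% at 24 h. After median-ratio scaling 5 rose and 2 fell at 12 h, beside 6.27% and 9.99% of genes, and 6 rose and 1 fell at 24 h, beside 7.75% and 8.2%. Plod1, a lysyl hydroxylase, averaged 34.9 ± 5.66 TPM in controls, 54.6 ± 4.07 TPM at 12 h and 57.1 ± 3.00 TPM at 24 h (log2 difference 0.65 ± 0.11, adjusted p = 0.0054, and 0.71 ± 0.11, adjusted p = 0.0012). P3h1, a prolyl 3-hydroxylase, rose by 0.65 ± 0.15 and 0.80 ± 0.15 (adjusted p = 0.013 and 0.0039). Plod1 and P3h1 also passed after median-ratio scaling at both times (adjusted p = 0.019 and 0.049 at 12 h, and 0.0018 and 0.0028 at 24 h). Adamts14, a procollagen N-proteinase, rose at 12 h from 9.53 ± 3.62 to 17.9 ± 1.42 TPM (adjusted p = 0.014), and Plod3, which hydroxylates and glycosylates lysine, rose at 24 h from 98.9 ± 25.1 to 161 ± 5.33 TPM (adjusted p = 0.0040). Both also passed after median-ratio scaling (adjusted p = 0.013 and 0.00063).

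Between controls, 14 of the 28 were higher and 4 lower in MC-38, beside 64.7% and 10.7% of all genes, and 8 were higher and 11 lower after median-ratio scaling, beside 33.4% and 32.2%. Fkbp10, a collagen chaperone, stood at 14.1 ± 2.77 TPM in RM-9 and 121 ± 19.7 TPM in MC-38 (log2 difference 3.06 ± 0.16, adjusted p = 1.25e-15), and P3h4, which works with lysyl hydroxylase, at 3.68 ± 0.817 and 29.7 ± 4.18 TPM (2.86 ± 0.20, adjusted p = 1.32e-12). P4hb, the disulfide isomerase subunit of prolyl 4-hydroxylase, was at 194 ± 6.73 and 445 ± 43.9 TPM (1.19 ± 0.08, adjusted p = 8.35e-13). In the other direction P3h1 was at 62.7 ± 8.17 TPM in RM-9 and 27.8 ± 5.82 TPM in MC-38 (-1.17 ± 0.15, adjusted p = 7.88e-08), and Pcolce2, an enhancer of procollagen C-proteinase, and Bmp1, that proteinase, were also lower in MC-38 (-1.43 ± 0.13 and -0.75 ± 0.16, adjusted p = 2.57e-10 and 0.000129). These 3 higher and 3 lower genes kept their direction and call after median-ratio scaling. In the changes themselves 9 of the 28 changed more in MC-38 than in RM-9 at 12 h and 3 at 24 h, beside 44.9% and 1.81% of all genes, and after median-ratio scaling 0 and 1 did, beside 1.51% and 1.2%. The smallest p was that of Plod1 at both times (0.73 ± 0.15, adjusted p = 0.0020, and 0.64 ± 0.16, adjusted p = 0.035), which was not called after median-ratio scaling (adjusted p = 0.42 and 0.17). After that scaling Plod3 was the 1 gene of the list called at 24 h (0.43, adjusted p = 0.014).

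Collagen receptors were the last group. Of 10 receptor genes, 8 were tested in RM-9 and 6 in MC-38. None was called in RM-9 at any time on the TPM scale (limma, with 5, 2 and 0 at an unadjusted p under 0.05), and 1 was called higher at 3 h after median-ratio scaling. In MC-38, Ddr1 and Ddr2, the discoidin domain receptor kinases, and Mrc2, an endocytic receptor, rose at 12 h (log2 differences 0.59 ± 0.16, 0.80 ± 0.24 and 0.65 ± 0.18, adjusted p = 0.020, 0.025 and 0.022), and Mrc2 rose at 24 h (0.77 ± 0.18, adjusted p = 0.014), with none of these calls left after median-ratio scaling. In these tumors 28.5% of all genes rose at 12 h and 13.2% at 24 h, and 2.59% and 0.548% fell. Lair1, an inhibitory collagen receptor of leukocytes, fell at all 3 times, from 16.7 ± 3.14 TPM in controls to 5.90 ± 0.544, 4.54 ± 2.07 and 8.69 ± 1.86 TPM (log2 differences -1.42 ± 0.24, -1.85 ± 0.24 and -0.91 ± 0.24, adjusted p = 0.037, 0.0031 and 0.020), and all 3 falls were called after median-ratio scaling. The macrophage markers of MC-38 summed to 625 to 999.6 TPM in controls, 440 to 696 TPM at 3 h, 230 to 542 TPM at 12 h and 510 to 633 TPM at 24 h, with 4 of 6 called lower at 12 h and 1 at 24 h, and their part in the fall of Lair1 was not tested. Between controls all 8 receptor genes tested were called, 4 higher and 4 lower in MC-38, beside 75.4% of all genes called. After median-ratio scaling 3 were higher and 5 lower, beside 33.4% and 32.2% of genes. Of the 3 with the smallest p each way, Lair1, Ddr2 and Itga1, an integrin chain that binds type IV collagen, were higher in MC-38 (2.00 ± 0.27, 1.45 ± 0.21 and 1.13 ± 0.14). Itga2, an integrin chain that binds type I collagen, Ddr1 and Mrc2 were lower (-1.65 ± 0.21, -0.73 ± 0.14 and -0.62 ± 0.15). These 6 were called on both scales, with a largest adjusted p of 0.000492 for Mrc2 on the TPM scale.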

How the data were processed

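The authors deposited 1 gene table per library with TPM, FPKM and coverage, in the layout of StringTie gene abundance files. TPM was deposited with the same total in each library, FPKM differs from it by a constant per library, and coverage was deposited as mean depth per base. The kit was TruSeq Stranded mRNA with 75-base single reads. Per the labels, bcl2fastq 2.17 was used and the build was GRCm39, but 91.1% of 45223 shared genes had a start or end of GENCODE M21 (GRCm38), whose coordinates are given. The aligner is not given in the sources used here. No read counts were at hand, so depth was estimated by dividing coverage by FPKM, and no counting error is given. FPKM was used only for that.

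Groups came from the labels. log2(TPM + 0.5) was fitted with limma 3.58.1 (lmFit, eBayes with trend) in R 4.3.3, per model with 4 groups, or over 31 libraries with 8 groups for the comparison of controls and the differences between models. Only genes averaging 0.5 TPM or more in the fitted libraries were tested, with Benjamini-Hochberg adjustment over all of them and a threshold of 0.05. ± is SD for TPM and SE for log2 differences. A difference is on the log2(TPM + 0.5) scale and understates changes of low genes. Each library is 1 mouse. The scripts were tested on simulated data. Tables and figures used Python 3.11.15, and Dunnett's comparisons scipy 1.17.1.

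Named members were the 6 with the highest mean; per RT comparison the 3 largest rises and falls among those called, or else the 2 smallest p; up to 5 each way between controls; up to 3 per difference between models by p; partner chains of types I, III, IV, V and VI; up to 3 each way by p from the enzyme and receptor lists; and those within 0.1 TPM of the limit. Other called members were added after their values were seen. Members and lists were chosen with earlier results of these data known. Marker lists covered fibroblasts, pericytes, endothelium, muscle, cartilage and bone, adipocytes, keratinocytes, epithelium, Schwann cells, macrophages and neutrophils.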

Additional observations from a re-analysis of the deposited data

Results flagged for a closer look

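Among 148 groups of 4 mice tested over 24 of the members, 5 held a mouse far from the other 3, and chance flags about 1 in 20. Members outside these 24 were not screened. Col12a1 was at 12.4 TPM in MC-38 RT 3 h mouse 3, against 2.33 to 3.07 TPM in the others, and Col14a1 in the same mouse was at 6.68 TPM, against 1.71 to 2.55 TPM. Col6a1 was at 285 TPM in MC-38 RT 12 h mouse 2, against 146 to 161 TPM. In MC-38 RT 24 h mouse 1, Col27a1 was at 4.21 TPM, against 1.77 to 1.86 TPM, and Col8a2 at 0.936 TPM, against 0.351 to 0.446 TPM.

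The change after RT differed between the models, MC-38 minus RM-9, for 8 members at 12 h on the log2(TPM + 0.5) scale (limma over 31 libraries). The differences were 0.97 for Col18a1, 1.07 for Col11a1, 0.80 for Col16a1, 0.96 for Col5a1, 0.60 for Col4a1, 0.59 for Col4a2, 1.12 for Col4a5 and 0.60 for Col5a3, with adjusted p from 0.0025 for Col18a1 to 0.033 for Col5a3. None of the 8 was called after median-ratio scaling. At 24 h Col18a1 differed by 0.94 (adjusted p = 0.027), and by 0.67 after median-ratio scaling (adjusted p = 0.043).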

How the results depend on the processing

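Counts of collagen chain genes called depended on scaling, on the libraries fitted and on single mice. Under median-ratio scaling, 2 were called in MC-38 at 12 h in place of 11, 4 at 24 h in place of 7, and 0 in the difference between models at 12 h in place of 8, which was 3 without mitochondrially encoded genes and 1 from coverage in place of TPM, an alternative chosen after seeing the data. With no filter on low values, 6 were called in MC-38 at 12 h and 3 in the difference between models at 24 h. With only the 2 groups compared, 3 were called in MC-38 at 12 h and 1 at 24 h. A mean TPM of at least 5 left 18 members tested between controls in place of 26, and 8 calls in place of 14. The calls lost belonged to members under that mean, which were not tested. Dunnett's comparisons called 1 in RM-9 at 3 h and 1 at 24 h. The causes of the other shifts were not tested. Leaving out 1 mouse gave 0 to 1 in RM-9 at 12 h, 2 to 14 in MC-38 at 12 h (1 of them lower without MC-38 control mouse 2 and 2 lower without control mouse 3, and none lower in the other fits), 3 to 9 at 24 h, 11 to 14 between controls, 6 to 10 for the difference between models at 12 h and 0 to 3 at 24 h. The difference of Col6a1 in RM-9 at 24 h ran from -0.59 to 0.018 when 1 mouse was left out, and it reversed without RM-9 RT 24 h mouse 1.

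Same-numbered mice did not deviate together, with a mean correlation of -0.054 over 21 pairs in RM-9 and -0.032 over 24 pairs in MC-38. With mouse number as a replicate block, 11 were called in MC-38 at 12 h, 7 at 24 h, 10 between controls (7 higher and 3 lower), 8 and 1 in the differences between models at 12 and 24 h, and 0 elsewhere. For 28 named results, 477 values under alternatives kept direction and side of the threshold, 36 lost their call, 1 gained one and 1 reversed. No counts of reads were at hand, so the precision of members under 1 TPM is not known beyond the spread between mice.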
